A study of Saccharomyces cerevisiae with 3 samples.

Results

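The cell wall stress sensors of *Saccharomyces cerevisiae* and the core of the Pkc1 pathway that they feed were followed in strains lacking Spt3 or Spt8. Both proteins are subunits of SAGA, a coactivator complex that brings TATA-binding protein to promoters. The 10 genes were *SLG1* (also called *WSC1*), *WSC2*, *WSC3*, *WSC4*, *MID2* and *MTL1*, which encode the sensors, and *PKC1*, *BCK1*, *SLT2* and *RLM1*. They were taken by gene symbol from the array's annotation, and all 10 were among the 5449 *S. cerevisiae* genes measured. They were chosen by function and selected on their signal ratios to wild type (WT), *WSC4* having stood out in both mutants, so the values below describe them and are not tests of the choice.

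RNA of *spt3Δ*, *spt8Δ* and WT cells was read on Affymetrix Yeast Genome 2.0 arrays. Each strain had a single array, so differences between strains lack a replicate check and no p-value is given. All 3 strains had the BY4742 background, the mutants with *SPT3* or *SPT8* deleted with a *KanMX* cassette, and were grown at 30 °C in 5 mL of rich medium (YPD) to an optical density of 0.7. The values are MAS5 signals on a linear scale, 1 per probe set, and each of the 10 genes was read by 1 probe set of its own. Signals of different probe sets are not on a common scale, so levels are compared between strains and not between genes.

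The deletions showed on the arrays. The signal of *SPT3* was 0.416 in *spt3Δ*, under the array's background, against 288 in WT, and that of *SPT8* was 5.20 in *spt8Δ*, also under background, against 346 in WT. Background was the 95th percentile of the probe sets taken as fission yeast on the same array, at 6.67 in *spt3Δ*, 8.61 in *spt8Δ* and 7.17 in WT. The labels give BY4742, an α strain, whereas the study's strain list gives *MATa* genotypes. On all 3 arrays the 4 α-specific genes read had signals between 1109 and 9816 and the 5 **a**-specific genes between 5.07 and 50.7. The median log2 ratio to WT over all genes was 0.15 in *spt3Δ* and 0.067 in *spt8Δ*. With loess scaling, which removes trends along signal strength, it was −0.0057 and −0.0026, and with equal gene medians on the arrays −0.083 and −0.030. A ratio near 0 therefore has no firm sign, and ratios are read against these medians.

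The yeast cell wall is watched by single-pass membrane proteins whose stiff, sugar-coated outer part is rich in serine and threonine. When the wall is strained, the sensors recruit exchange factors that load the small GTPase Rho1 with GTP. Rho1 activates protein kinase C (Pkc1), which starts a kinase cascade of Bck1, the paired kinases Mkk1 and Mkk2, and the MAP kinase Slt2, also called Mpk1. Slt2 in turn phosphorylates the transcription factor Rlm1, which switches on genes for building and repairing the wall.

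*WSC4* was lower in both mutants by a margin that no other member approached. Its signal was 23.1 in *spt3Δ* and 13.1 in *spt8Δ*, against 230 in WT. All 3 signals were above background, the *spt8Δ* signal by the smallest margin. This was a 9.97-fold lower level in *spt3Δ* and a 17.6-fold lower one in *spt8Δ*. The log2 ratios were −3.32 and −4.14.

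**Figure D1:**
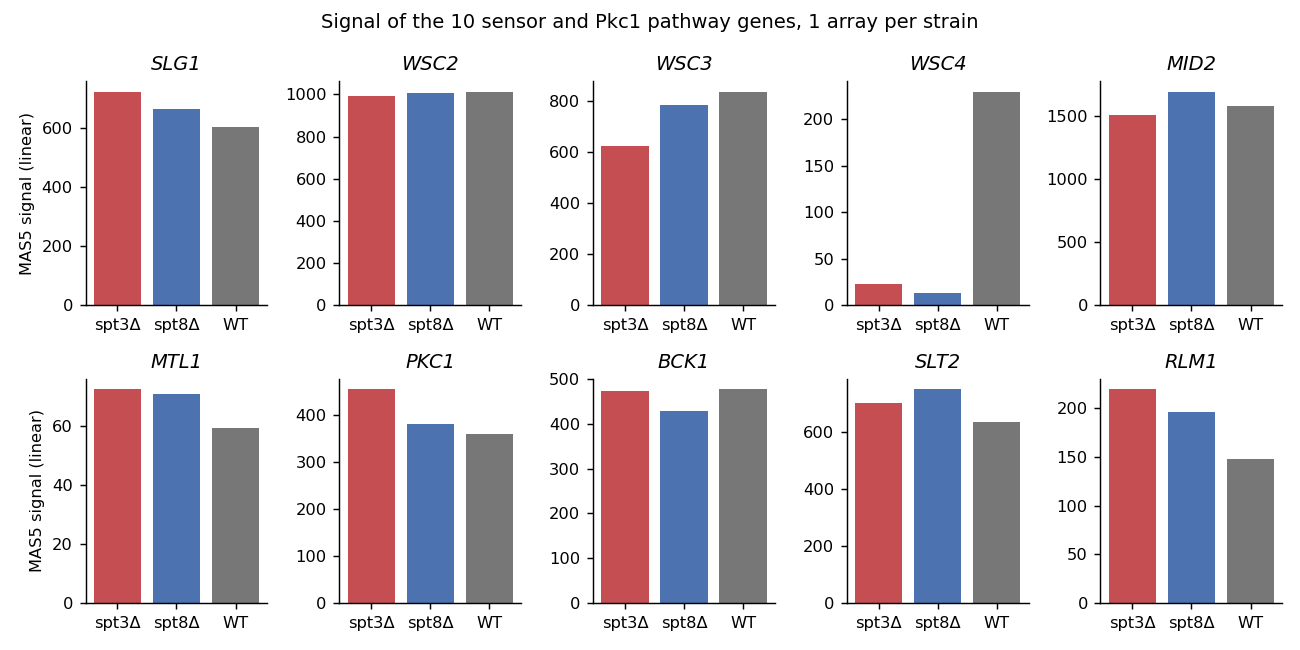
MAS5 signal (linear scale, each panel from 0) of the 6 sensor genes, *PKC1*, *BCK1*, *SLT2* and *RLM1* on the arrays of *spt3Δ*, *spt8Δ* and WT; each bar is 1 array, so there are no error bars. *WSC4* was at 23.1 and 13.1 in the mutants and 230 in WT. By ratio to WT the other 9 genes differed less, *RLM1* most among them in both mutants (219 and 196, against 147 in WT).

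Genes more than 2 SD away from the mean log2 ratio of all genes were called lower or higher. The study also cut at a multiple of the SD, but the fold limits it states lie closer to WT than those computed here. The limits were −1.26 and 1.47 in *spt3Δ* and −0.91 and 1.01 in *spt8Δ*. By this rule 1 of the 10 members, *WSC4*, was lower in *spt3Δ*, where 2.73% of all genes were called lower, and 1 of 10, again *WSC4*, was lower in *spt8Δ*, where 2.13% were. No member was called higher in either mutant, against 0.973% of all genes in *spt3Δ* and 1.63% in *spt8Δ*. Since the members were chosen with these ratios known, nothing is read from the counts. Among all 5449 genes, *WSC4* had the 24th lowest ratio in *spt3Δ* and the 3rd lowest in *spt8Δ*, where the lowest was the deleted *SPT8* itself. Counted from the mean of all genes, its ratio was at −5.01 SD in *spt3Δ* and at −8.73 SD in *spt8Δ*. A single WT array underlies both ratios, so an error in its *WSC4* signal would move both ratios alike.

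**Figure D2:**
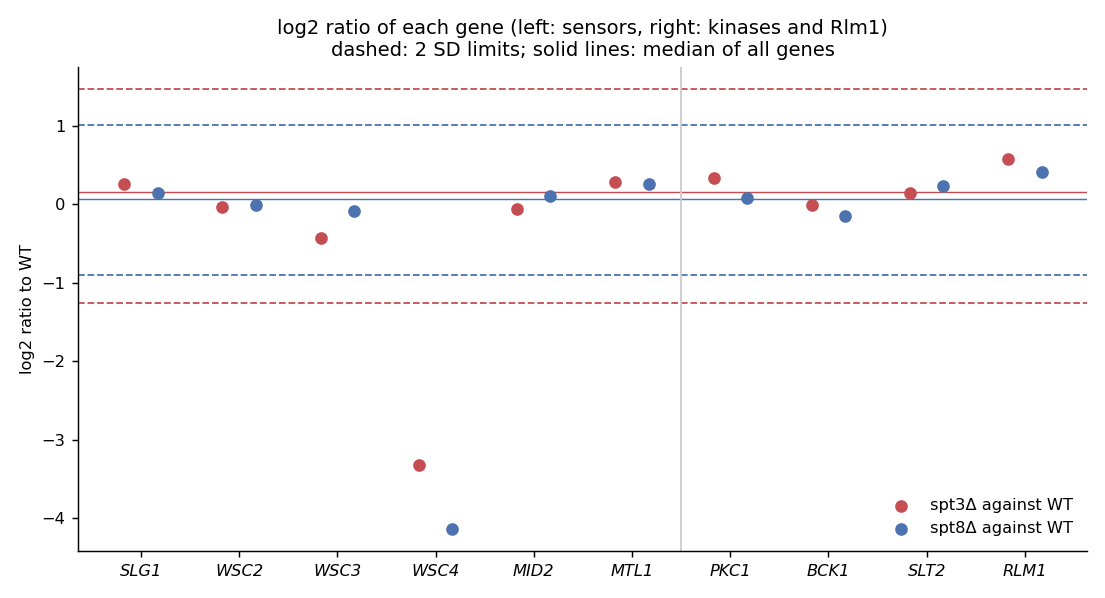
Log2 ratio to WT of each sensor gene (left of the vertical line) and of *PKC1*, *BCK1*, *SLT2* and *RLM1* (right of it) in *spt3Δ* and *spt8Δ*, 1 point per comparison of 2 arrays; dashed lines are the 2 SD limits and solid lines the median of all genes. Only the points of *WSC4*, at −3.32 and −4.14, lie outside the limits.

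The fold of *WSC4* depends on how signals near background are treated. With 50 added to each signal before the ratio was taken, the *WSC4* level was lower by 3.83-fold in *spt3Δ* and by 4.44-fold in *spt8Δ*, and it was still called lower in both. Over all 8 alternatives of scaling, filter and threshold, its log2 ratio lay between −3.55 and −1.94 in *spt3Δ* and between −4.39 and −2.15 in *spt8Δ*, and it was called lower under each of them. The filters and thresholds leave the *WSC4* ratio itself unchanged, so only the scalings and the added 50 could move it.

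The other members of the Wsc family stayed close to WT. Slg1 is the main sensor of wall stress during growth, and Wsc2 and Wsc3 are its close relatives with overlapping roles. *SLG1* had a signal of 725 in *spt3Δ* and 668 in *spt8Δ*, against 604 in WT, log2 ratios of 0.26 and 0.14. *WSC2* had 990 in *spt3Δ* and 1007 in *spt8Δ*, against 1013 in WT, log2 ratios of −0.033 and −0.0077. *WSC3* had 624 in *spt3Δ* and 786 in *spt8Δ*, against 838 in WT, log2 ratios of −0.43 and −0.092. *WSC3* was thus the second lowest member in *spt3Δ*, yet 13.3% of all genes lay lower still, and it was within the limits. For comparison, genes read by several probe sets had a median range between their probe sets of 0.21 on the log2 scale in *spt3Δ* and 0.20 in *spt8Δ*. That range covers probe sets of the same array and not the spread between cultures.

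*MID2* and *MTL1* form the other sensor family, with Mid2 known for survival of pheromone treatment and Mtl1 for oxidative stress and glucose starvation. *MID2* had a signal of 1504 in *spt3Δ* and 1688 in *spt8Δ*, against 1572 in WT, log2 ratios of −0.064 and 0.10. *MTL1* had 72.5 in *spt3Δ* and 71.1 in *spt8Δ*, against 59.5 in WT, log2 ratios of 0.29 and 0.26. Both lay within the limits in both mutants. As *SLG1* was, *MTL1* was above WT in both under each scaling tried. With median scaling the *MTL1* log2 ratio in *spt3Δ* was 0.049. Of the 6 sensor genes, *WSC4* alone was therefore called.

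The kinase genes and *RLM1* were within the limits as well. *PKC1* had a signal of 455 in *spt3Δ* and 382 in *spt8Δ*, against 360 in WT, log2 ratios of 0.34 and 0.085, the second of which was below 0 after each other scaling. *BCK1*, the MAP kinase kinase kinase, had 473 in *spt3Δ* and 429 in *spt8Δ*, against 477 in WT, log2 ratios of −0.012 and −0.15. *SLT2*, the MAP kinase, had 701 in *spt3Δ* and 748 in *spt8Δ*, against 634 in WT, log2 ratios of 0.14 and 0.24. The *SLT2* ratio in *spt3Δ* lay near the median of all genes and turned negative after each other scaling. *RLM1* had the highest ratio of the 10 in both mutants, with a signal of 219 in *spt3Δ* and 196 in *spt8Δ*, against 147 in WT. Its log2 ratios were 0.57 and 0.41, above those of 79.6% of all genes in *spt3Δ* and 87.7% in *spt8Δ*, and it stayed above WT under each scaling.

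**Figure D3:**
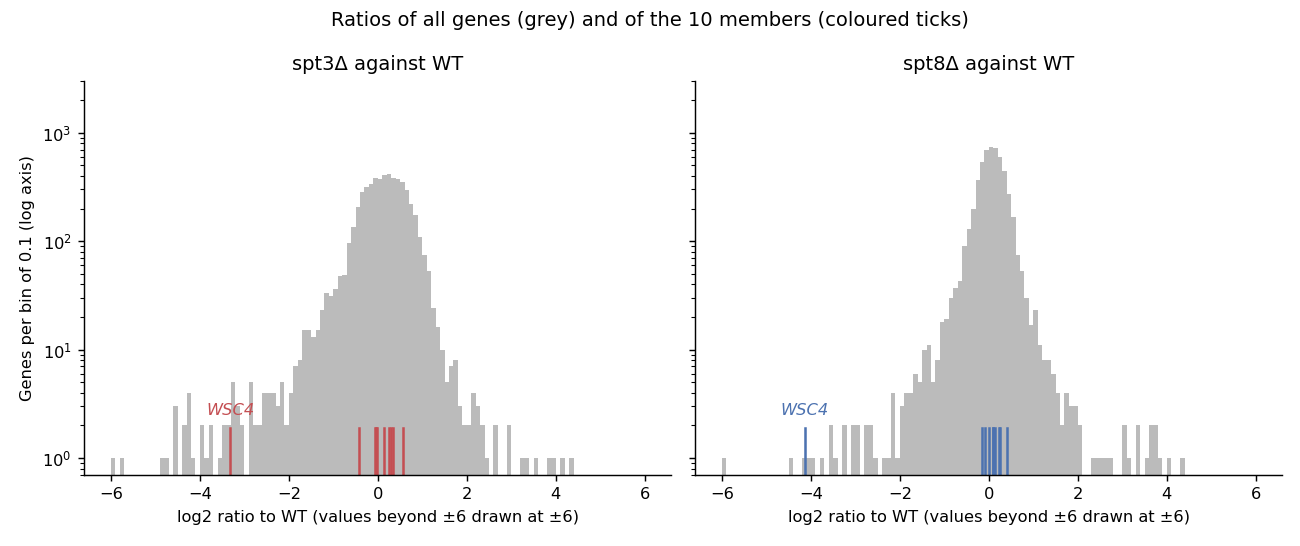
Histogram of the log2 ratios to WT of 5449 genes (grey, log axis of counts per bin) in *spt3Δ* (left) and *spt8Δ* (right), with the 10 members as colored ticks at the foot. *WSC4* lies in the lower tail of both panels, and the other 9 ticks lie in the body of the distribution, from −0.43 to 0.57 in *spt3Δ* and from −0.15 to 0.41 in *spt8Δ*.

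Taken without *WSC4*, the 9 members had a median log2 ratio of 0.14 in *spt3Δ*, where that of all genes was 0.15. In *spt8Δ* it was 0.10, where that of all genes was 0.067. Of the 9, 5 lay below and 4 above the median of all genes in *spt3Δ*, and 3 lay below and 6 above it in *spt8Δ*. The pathway core apart from *WSC4* was thus centered close to the other genes on the arrays.

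Setting the mutants against each other leaves out the WT array. No member was called in *spt3Δ* against *spt8Δ*, where 2.62% of all genes were lower and 0.844% higher. *WSC4* came nearest, with 23.1 in *spt3Δ* against 13.1 in *spt8Δ*, a log2 ratio of 0.82 with an upper limit of 1.10. It was called higher in *spt3Δ* with quantile normalization (1.10) and with loess scaling (0.99), and with 50 added to each signal the ratio was 0.21. The remaining 9 lay between −0.33 (*WSC3*) and 0.26 (*PKC1*).

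The probed neighbors of *WSC4* (systematic name YHL028W) on the left arm of chromosome VIII did not share its low ratio. In the gene order of the R64 assembly it was the 17th probed gene from the chromosome end. The 4 probed genes on each side of it had log2 ratios from −0.50 to 0.46 in *spt3Δ* and from −0.44 to 0.62 in *spt8Δ*, and none of the 8 was called. Next to it towards the end, *OCA5* had a signal of 574 in *spt3Δ* and 597 in *spt8Δ*, against 812 in WT. On the other side *RIM101*, which encodes a repressor that responds to alkaline pH, had 275 in *spt3Δ* and 294 in *spt8Δ*, against 303 in WT. Of the 10 members, *PKC1* lay nearest to a chromosome end, as the 7th probed gene of its arm, and its ratios were 0.34 and 0.085.

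**Figure D4:**
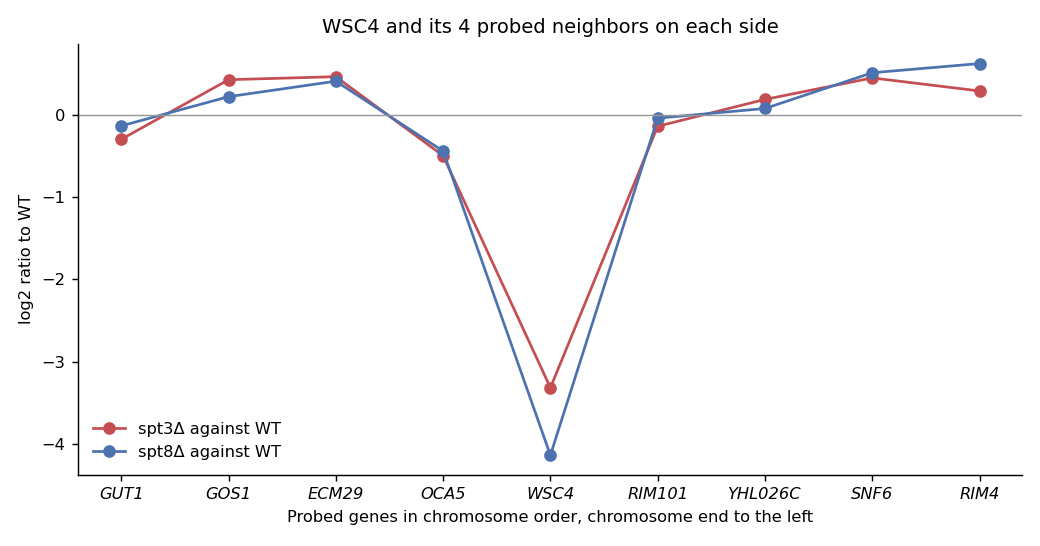
Log2 ratio to WT of *WSC4* and the 4 probed genes on each side in chromosome order (chromosome end to the left) in *spt3Δ* and *spt8Δ*, 1 point per comparison of 2 arrays. *WSC4* is at −3.32 and −4.14, and its 8 neighbors lie between −0.50 and 0.62.

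The genes most like *WSC4* in the pair of ratios, by Euclidean distance on the log2 scale among the 5339 other genes above background in WT, were *PHO5*, *PHO89*, *SPL2*, YNR075C-A and YOL164W-A. *PHO5*, the main secreted acid phosphatase, was nearest at a distance of 0.92, with a signal of 297 in *spt3Δ* and 341 in *spt8Δ*, against 3178 in WT. *PHO89*, a phosphate transporter gene, lay at 1.11, with 51.9 in *spt3Δ* and 84.7 in *spt8Δ*, against 995 in WT. *SPL2*, a regulator of phosphate transport, lay at 1.51, with 129 in *spt3Δ* and 160 in *spt8Δ*, against 3560 in WT. All these signals were above background, and the 3 genes had *spt3Δ* ratios below their *spt8Δ* ratios, the reverse of *WSC4*. The remaining 2 had WT signals of 11.3 and 8.31 and were under background in both mutants, so their distances of 1.68 and 1.79 rest on values with no measured ratio.

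The rest of the pathway was read through 22 further genes, mostly for exchange factors, GTPase-activating proteins, kinases, phosphatases and Slt2 targets, with *RHO1* itself. *BAG7* is both in this list and in that of cell wall output genes below. In *spt3Δ* none of the 22 was called, and in *spt8Δ* 1 was lower and none higher, beside the shares of all genes given above. Their median log2 ratio was −0.0096 in *spt3Δ*, against 0.15 for all genes, and −0.052 in *spt8Δ*, against 0.067. The gene called was *ROM1*, which encodes an exchange factor of Rho1. Its signal was 53.1 in *spt3Δ* and 52.3 in *spt8Δ*, against 110 in WT, a 2.07-fold lower level in *spt3Δ* and a 2.10-fold lower one in *spt8Δ*. Only the *spt8Δ* ratio was past its limit, because the limits differ. At a threshold of 2-fold *ROM1* was lower in both, where 4.2% of all genes were lower in *spt3Δ* and 1.85% in *spt8Δ*. Its paralog *ROM2* had 467 in *spt3Δ* and 565 in *spt8Δ*, against 535 in WT.

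*SWI4* and *SWI6*, whose products form the cell cycle factor SBF, another target of Slt2, had the highest ratios of the list in *spt3Δ* without being called. *SWI4* had a signal of 179 in *spt3Δ* and 114 in *spt8Δ*, against 87.6 in WT, which was 2.04-fold higher in *spt3Δ*, just past a 2-fold threshold that 4.15% of all genes passed. After quantile, loess or median scaling its log2 ratio in *spt3Δ* was 0.81, 0.76 or 0.79, under 2-fold, and the 226 genes higher by 2-fold became 128, 112 or 89. *SWI6* had 383 in *spt3Δ* and 277 in *spt8Δ*, against 214 in WT. *MKK1*, named after its values were seen because it stands between Bck1 and Slt2, had 377 in *spt3Δ* and 355 in *spt8Δ*, against 251 in WT, and *MKK2*, named with it, had 136 in *spt3Δ* and 113 in *spt8Δ*, against 124 in WT. *RHO1* itself differed little, with 4668 in *spt3Δ* and 4703 in *spt8Δ*, against 4948 in WT.

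Cell wall genes described as targets of Rlm1 or of the pathway had signals below WT in most cases, each within the limits. Of 20 measured, 17 had a signal below WT in *spt3Δ*, where 38.8% of all genes did, and 14 in *spt8Δ*, where 41.1% did. None was called in either mutant, and with 2.73% of all genes called lower in *spt3Δ* and 2.13% in *spt8Δ*, a count of 0 among 20 is near the background. The count depended on the setting. With 50 added to each signal, 3 of the 20 were lower in *spt3Δ* (2.7% of all genes) and 1 in *spt8Δ* (2.5%). With limits of 2 robust SD, 3 were lower in *spt3Δ* (4.86% of all genes) and 2 in *spt8Δ* (5.62%). The median log2 ratio was −0.37 in *spt3Δ*, where that of all genes was 0.15, and −0.10 in *spt8Δ*, where that of all genes was 0.067. After loess scaling, 14 of 20 were below WT in *spt3Δ* (50.5% of all genes) and 12 in *spt8Δ* (50.4% of all genes), and the medians were −0.24 and −0.058. Several of these genes, among them *SED1*, *CIS3* and *BGL2*, encode major wall proteins or enzymes.

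The named genes of this group were *YPS1*, *PST1* and *PIR5*. *YPS1*, an aspartyl protease anchored at the cell surface, had a signal of 661 in *spt3Δ* and 1949 in *spt8Δ*, against 1346 in WT. It was 2.04-fold lower than WT in *spt3Δ* and 1.45-fold higher in *spt8Δ*, neither of which was past the 2 SD limits. *PST1*, a wall protein induced by wall damage, had 968 in *spt3Δ* and 1249 in *spt8Δ*, against 1929 in WT, so it was 1.99-fold and 1.54-fold lower. *PIR5*, of the family of Pir wall proteins, had 113 in *spt3Δ* and 72.1 in *spt8Δ*, against 57.2 in WT. *PIR5* was thus above WT in both mutants, unlike most of the group. So was *PRM5*, a target of Rlm1 named after its values were seen. *PRM5* had 936 in *spt3Δ* and 1176 in *spt8Δ*, against 757 in WT, also within the limits.

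**Figure D5:**
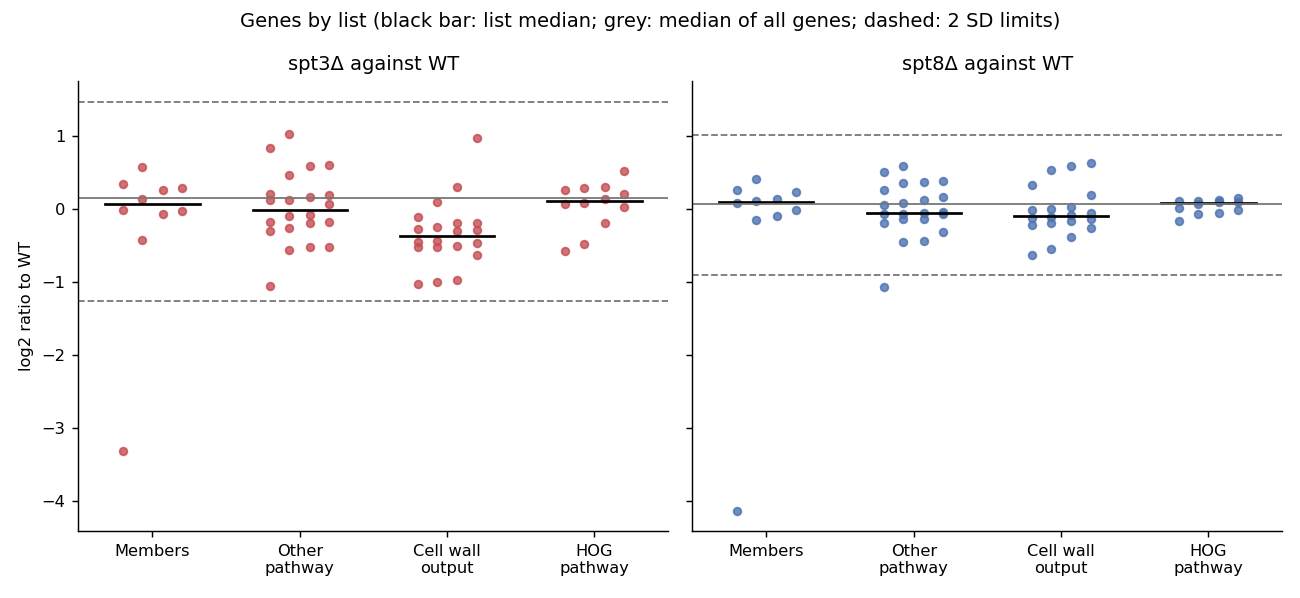
Log2 ratios to WT in *spt3Δ* (left) and *spt8Δ* (right) of the 10 members, 22 other pathway genes, 20 cell wall output genes and 12 HOG pathway genes; each point is a gene, black bars are list medians, the solid grey line is the median of all genes and dashed lines are the 2 SD limits. *WSC4* is the lowest point in both panels, and *ROM1* is the only other point outside the limits, in *spt8Δ*.

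The high osmolarity glycerol (HOG) pathway is another MAP kinase cascade fed by membrane sensors. None of its 12 genes was called in either mutant, and a count of 0 among 12 is near the shares of all genes called (2.73% lower and 0.973% higher in *spt3Δ*, 2.13% lower and 1.63% higher in *spt8Δ*). Their median ratio on the log2 scale was 0.11 in *spt3Δ*, against 0.15 for all genes, and 0.082 in *spt8Δ*, against 0.067 for all genes. Their log2 ratios ran from −0.57 to 0.52 in *spt3Δ* and from −0.16 to 0.16 in *spt8Δ*. The widest in *spt3Δ* were *SSK1*, a response regulator, with 160 in *spt3Δ* and 212 in *spt8Δ*, against 238 in WT, *OPY2*, a membrane anchor, with 813 in *spt3Δ* and 618 in *spt8Δ*, against 569 in WT, and *MSB2*, a mucin-like sensor, with 1066 in *spt3Δ* and 1604 in *spt8Δ*, against 1488 in WT. In *spt8Δ* the widest were *SSK1* and *SSK22*, a MAP kinase kinase kinase named after its values were seen, with 132 in *spt3Δ* and 140 in *spt8Δ*, against 126 in WT. No sensor gene of that pathway had a ratio near that of *WSC4*.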

How the data were processed

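Total RNA of *spt3Δ*, *spt8Δ* and WT cells was hybridized by the authors to 1 array per strain. The deposited intensity values are MAS5 signals per probe set from Microarray Suite run with defaults; Affymetrix Expression Console is also named in the submitters' processing notes, without a version. The authors' scaling left trimmed means of 500.3 in *spt3Δ*, 500.3 in *spt8Δ* and 500.4 in WT.

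Of 10928 probe sets, 5498 were matched through the platform annotation to *S. cerevisiae* genes of the R64 table. The 1746 others annotated to a single gene, which is absent from that table, were taken as *S. pombe*. Log2 signals were averaged over the probe sets of a gene, which gave 5449 genes, 5268 of them above background on all 3 arrays. Ratios were taken array to array, without a test. The number of arrays limits the precision. Steps were run in Python 3.11.15 with statsmodels 0.14.6 and tested on simulated data.

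The members and lists were chosen with earlier results of these data known. Named were all members, *SPT3* and *SPT8*, list genes past the limits, the 3 genes of each list with the largest absolute log2 ratio (taking for each gene the larger of its *spt3Δ* and *spt8Δ* values), the 5 genes nearest *WSC4* and its neighbors; others are marked, except *ROM2*, *RHO1*, *SED1*, *CIS3* and *BGL2*, which were also picked after their values were seen. *NCW2* of the output list was not analysed here. Alternatives were quantile, loess (span 0.3) and median scaling, 50 added to each signal, genes above background only, thresholds of 2-fold or 2 robust SD, and shared probe sets left out.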

Additional observations from a re-analysis of the deposited data

How the results depend on the processing

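With 1 array per strain no array could be left out. No paired analysis was possible because each strain has 1 array and no comparison comes from a replicated test. The member calls against WT, *WSC4* lower in each mutant and none higher, were the same under all 8 alternatives. In *spt3Δ* against *spt8Δ*, 1 member (*WSC4*) was called higher with quantile normalization, loess scaling or a robust SD, and 0 otherwise. Of all genes, 1.28%, 1.17% and 2.48% were called higher under these 3 settings. In *spt3Δ*, 2-fold called 1 other pathway gene lower, 1 higher and 1 output gene lower (4.2% of all genes lower, 4.15% higher). A robust SD called 1 other pathway gene of 22 and 3 output genes of 20 lower (4.86% of all genes). With 50 added, 3 output genes of 20 were lower (2.7% of all genes). In *spt8Δ*, output genes called lower numbered 1 with 50 added (2.5% of all genes) and 2 with a robust SD (5.62% of all genes). Median log2 ratios in *spt3Δ* moved with median scaling to −0.17 for the members and −0.25 for other pathway genes. They moved to −0.61 for output genes and −0.13 for HOG genes. The median of all genes moved with them, from 0.15 to −0.083, because median scaling shifts every gene of an array alike. With loess scaling the median of other pathway genes in *spt3Δ* moved to −0.23, where that of all genes was −0.0057. In *spt3Δ* against *spt8Δ* the member median was 0.073, against −0.050 with loess and −0.066 with median scaling. The median of all genes was 0.086, against −0.0053 with loess and −0.053 with median scaling. Over all genes of *spt3Δ*, 149 lower and 53 higher calls compare with 229 and 226 at 2-fold and 265 and 96 with a robust SD; in *spt8Δ* 116 and 89, against 306 and 220 with a robust SD, and 59 higher with 50 added; in *spt3Δ* against *spt8Δ* 143 and 46, against 296 and 135 with a robust SD, and 70 higher with quantile normalization. Apart from the equal shift of all genes under median scaling, the cause of these changes was not tested. Signals near background, as of *WSC4* in *spt8Δ* (13.1 against a background of 8.61), limit the size of a fold more than its direction.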

Other observations

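Some cell wall output genes were called between the mutants though none was called against WT at the 2 SD limits given above. In *spt3Δ* against *spt8Δ*, 3 of the 20 were called lower and none higher, where 2.62% of all genes were lower. This comparison of the list was made after its values were seen. *YPS1* had a log2 ratio of −1.56, with 661 in *spt3Δ* against 1949 in *spt8Δ*, and *GSC2*, which encodes the alternative catalytic subunit of the glucan synthase and is also called *FKS2*, was 2.01-fold lower, with 584 in *spt3Δ* against 1173 in *spt8Δ*. Both were called under all 8 alternatives as well, but *GSC2* passed the 2 SD limit only narrowly (log2 ratio −1.005, limit −0.997). *BAG7*, a GTPase-activating protein gene of Rho1 that is also among the 22 other pathway genes, had −1.11, with 9.68 in *spt3Δ* against 20.8 in *spt8Δ*, both near background, and was not called with quantile normalization (−0.85), with loess scaling (−0.90) or with 50 added to each signal (−0.25). The WT signal was 1346 for *YPS1*, 1146 for *GSC2* and 13.8 for *BAG7*.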
